A study of Homo sapiens with 6 samples.

Results

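Matrix metalloproteinases (MMPs), their tissue inhibitors (TIMPs) and the urokinase pair PLAU and PLAUR were followed in RNA-seq of SW480 cells. The 9 genes MMP1, MMP7, MMP9, MMP14, MMP15, TIMP1, TIMP2, PLAU and PLAUR were taken by symbol from the 56303 genes of the deposited count table. SW480 is an epithelial line from a human colorectal adenocarcinoma. It carried either a nonsilencing hairpin (shCtrl, 3 libraries, given in the labels as WT) or a hairpin against MORC2 (shMORC2, 3 libraries, given as MORC2 knockdown). MORC2 is a nuclear ATPase of the microrchidia family with a role in gene silencing. Both hairpins came by lentivirus, and the stable lines were described as clonal and puromycin-selected, so that traits of a clone that do not come from MORC2 and the knockdown itself cannot be told apart. The study described the replicates as 3 replicate experiments.

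MMPs are zinc-dependent proteases that are made as inactive proenzymes and cut collagens, laminins and other matrix proteins as well as cell surface proteins. Some are secreted, such as MMP1, MMP7 and MMP9, and others are anchored in the membrane, such as MMP14 and MMP15. TIMPs bind the active site and block it, and TIMP2 also takes part with MMP14 in the activation of proMMP2. PLAU (urokinase) turns plasminogen into plasmin, a broad protease that cuts fibrin and can activate several proMMPs, and PLAUR is the surface receptor that holds PLAU at the cell edge. In colorectal tumours MMP7 is made by the cancer cells themselves, whereas several other MMPs come largely from the stroma.

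Total counts ran from 42092664 to 43434425 per library. MORC2 itself stood at 46.1, 46.4 and 48.8 CPM (read counts scaled to a common library size by the trimmed mean of M-values) in shCtrl and at 35.0, 29.3 and 27.2 CPM in shMORC2, with no overlap (log2 fold change -0.63, SE 0.10, edgeR adjusted p 0.000216). The 7 epithelial markers looked at summed to between 19155 and 26153 CPM in every library, and 0 of them were called. Of 7 fibroblast, 5 leukocyte and 4 endothelial markers, 4, 3 and 2 were tested. In each list 1 was called higher, THY1, CD68 and VWF, beside 19.9% of all genes tested. THY1 had 0, 4 and 0 counts in shCtrl and 14, 36 and 34 in shMORC2. It passed the filter on low counts through shMORC2 alone. The summed level in shCtrl and shMORC2 was 20.0 to 20.9 and 23.5 to 25.8 CPM for the fibroblast list, 31.1 to 39.5 and 51.0 to 103 CPM for the leukocyte list, and 15.7 to 19.6 and 20.6 to 22.3 CPM for the endothelial list. CD68 made up most of the leukocyte sum, with 29.6 to 38.8 CPM in shCtrl and 49.5 to 101 CPM in shMORC2. PTPRC, CD3E, DCN, COL1A2, COL3A1, CDH5 and KDR had at most 10 counts in any library, while COL1A1 had 355 to 458 counts, LUM 330 to 514 and PECAM1 576 to 860. Which cells gave these marker levels, SW480 cells or others, was not tested, nor was any part of them in the values of the 9 genes.

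Of the 9 genes, 4 rose in shMORC2 (TIMP1, TIMP2, PLAU and PLAUR), 2 fell (MMP7 and MMP14) and MMP15 was not called. MMP1 and MMP9 did not pass the filter on low counts and were not tested. A gene was called where its adjusted p was below 0.05 (edgeR, quasi-likelihood, over all 21005 genes that passed the filter on low counts). In that test 39.5% of genes were called, 19.9% higher and 19.6% lower, so that a call alone was common in this comparison. For the 6 called genes, but not MMP15, the 3 shMORC2 CPM values lay all on one side of the 3 shCtrl values. The same held for 50.2% of the genes tested (25.1% above and 25.1% below). MMP1, which was not tested, had 2 counts in shCtrl replicate 3 and in shMORC2 replicates 2 and 3. Its CPM values in these libraries differed by scaling alone.

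**Figure D1:**
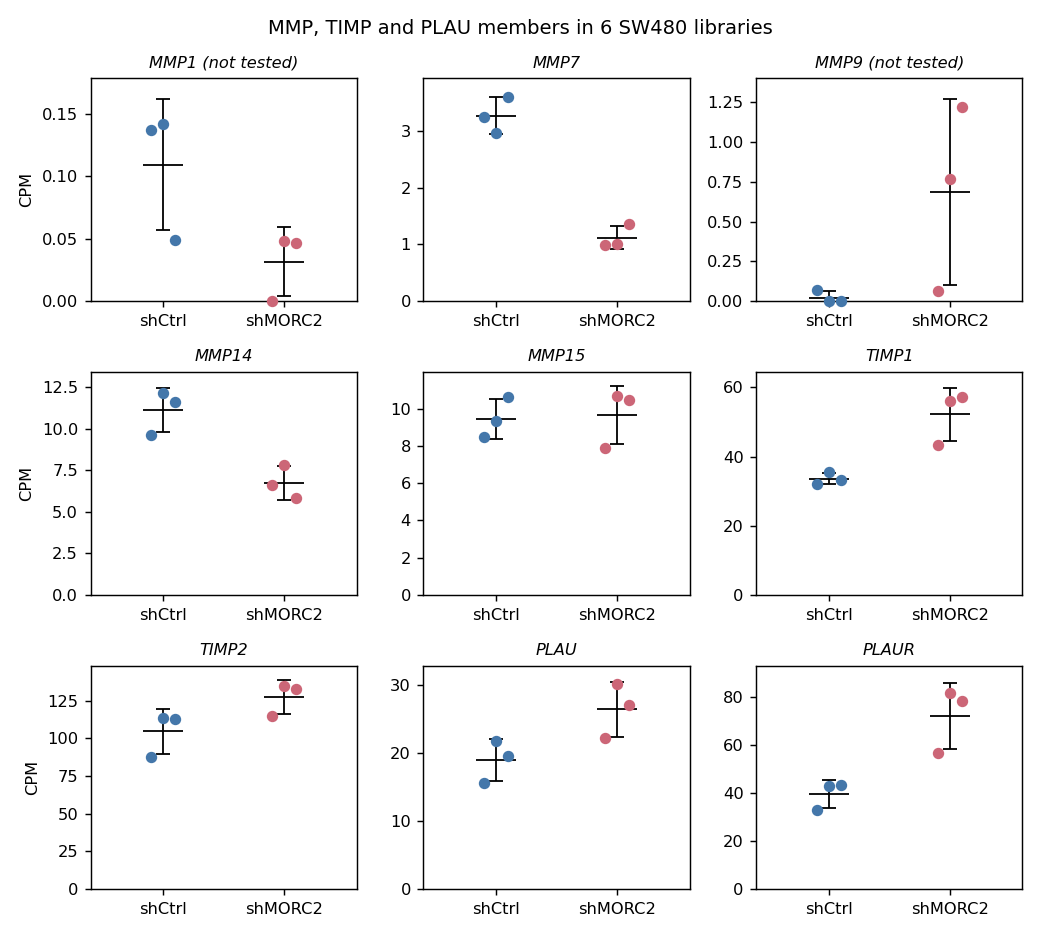
Level of each of the 9 genes in CPM (linear axes from 0) in 3 shCtrl and 3 shMORC2 libraries. Points are libraries, horizontal bars are group means and error bars are SDs. MMP7 and MMP14 are lower in every shMORC2 library, TIMP1, TIMP2, PLAU and PLAUR are higher in every one, and MMP15 overlaps. MMP1 and MMP9 were not tested.

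To set the genes beside each other, the deposited RPKM values were used, which divide counts by exon length and by the library total. In shCtrl the inhibitors came first, with TIMP1 at 21.9 ± 1.09 RPKM and TIMP2 at 18.6 ± 2.29 RPKM (SD, n = 3). PLAUR followed at 8.92 ± 1.13 RPKM and PLAU at 6.45 ± 0.988 RPKM. The proteases stood below them, with MMP14 at 2.49 ± 0.259, MMP15 at 2.14 ± 0.191 and MMP7 at 1.41 ± 0.120 RPKM. MMP1 and MMP9 had means of 0.0559 and 0.0100 RPKM. The libraries of neighbours in this order did not overlap, except for MMP14 with MMP15 and MMP1 with MMP9. In shMORC2 the first 4 places were the same, and MMP15, at 2.18 ± 0.305 RPKM, stood above MMP14, at 1.51, 1.72 and 1.29 RPKM in the 3 libraries, with no overlap. The 5 MMPs summed to 6.10 ± 0.362 RPKM in shCtrl and 4.47 ± 0.584 RPKM in shMORC2, and the 2 TIMPs to 40.5 ± 2.99 and 56.2 ± 5.80 RPKM.

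MMP7 (matrilysin; chromosome 11, 102520508 to 102530753, minus strand, GRCh38), a small secreted protease that lacks the hemopexin domain of most MMPs, showed the largest change of the 7 genes tested. Its counts were 142, 125 and 148 in shCtrl against 44, 42 and 58 in shMORC2. Every shMORC2 library stood well below every shCtrl library. The level fell from 3.26 ± 0.322 to 1.12 ± 0.209 CPM on average (SD, n = 3 each), a log2 difference of -1.54 ± 0.20 (SE, adjusted p 5.79e-05 in edgeR), or 34.4% of the shCtrl level. Among the 8301 genes called, 6.77% changed by more. As in any bulk sample, fewer cells that express MMP7 and less MMP7 RNA per cell cannot be told apart.

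The MMP7 promoter is shown because the gene changed most and because it holds letters read by factors whose own transcripts were measured in the same libraries. The 240 bases from 250 to 11 before the RefSeq start (GRCh38.p14, chr11:102530758-102530997, minus strand, from RefSeq) are written 5′ to 3′, with motif matches in capitals.
MMP7: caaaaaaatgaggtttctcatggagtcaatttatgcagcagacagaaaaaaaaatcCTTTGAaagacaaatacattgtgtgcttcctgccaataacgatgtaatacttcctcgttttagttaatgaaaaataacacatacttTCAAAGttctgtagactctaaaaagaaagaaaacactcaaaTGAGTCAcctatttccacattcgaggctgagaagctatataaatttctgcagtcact
The capitals mark CTTTGA, the core read by TCF and LEF1 factors, on either strand 194 and 108 bases before the start. They also mark TGANTCA, a site of AP-1 (dimers of FOS and JUN proteins), 67 bases before the start. Both strands were searched over the 250 bases before each start, and no match overlapped another. Of 35116 RefSeq promoters, 11.2% held CTTTGA and 6.57% held TGANTCA. RefSeq promoters were matched for 6 of the 9 genes, MMP7, MMP14, MMP15, TIMP1, PLAU (with 2 windows) and PLAUR, and the CTTTGA letters were found in that of MMP7 alone.

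MMP14 (MT1-MMP; chromosome 14, 22836557 to 22849027), a membrane-anchored collagenase and an activator of proMMP2, also fell. It had 422, 512 and 476 counts in shCtrl and 292, 326 and 248 counts in shMORC2. Again the groups did not overlap. The level went from 11.1 ± 1.30 to 6.75 ± 1.01 CPM on average (SD, n = 3 each), a log2 difference of -0.72 ± 0.13 (SE, adjusted p 0.000966 in edgeR). MMP15 (MT2-MMP; chromosome 16, 58025566 to 58046901), the other membrane type followed, gave 371, 394 and 436 counts in shCtrl and 350, 444 and 445 counts in shMORC2. Its groups overlapped, and no change was called (log2 fold change 0.03, SE 0.13, edgeR adjusted p 0.874).

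MMP1 (interstitial collagenase; chromosome 11, 102789920 to 102798160) was near the limit of detection, with 6, 6 and 2 counts in shCtrl and 0, 2 and 2 counts in shMORC2. The ratio of the summed counts, 4 against 14, was 0.281 (95% exact interval 0.0674 to 0.895, which covers counting error only), and with no filter on low counts edgeR gave an adjusted p of 0.381. No difference was therefore detectable at this depth with the spread between libraries counted in. WTAPP1 shares exonic sequence with MMP1 on the other strand and had 3 to 12 counts.

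MMP9 (gelatinase B; chromosome 20, 46008908 to 46016561) was read 3, 0 and 0 times in shCtrl and 3, 32 and 52 times in shMORC2. Replicates 2 and 3 of shMORC2 stood above all other libraries, while replicate 1 stood at the level of the highest shCtrl library. Over the groups the counts were 87 against 3, a ratio of 28.5 (95% exact interval 9.45 to 141, counting error only), which replicate 1 of shMORC2 did not share, since 84 of the 87 counts came from the other libraries. MMP9 did not pass the filter on low counts. Without the filter edgeR gave an adjusted p of 3.95e-11, DESeq2 gave 0.0210, and limma on log2(RPKM + 1) gave 0.176, so that the call rested on the tool. It also rested on replicates 2 and 3 of shMORC2, since MMP9 did not pass the filter when either was left out.

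TIMP1 (chromosome X, 47582313 to 47586789), a secreted inhibitor of many MMPs, rose. It had 1412, 1502 and 1370 counts in shCtrl and 1923, 2331 and 2441 counts in shMORC2. The groups did not overlap, and the first shMORC2 library was the nearest to shCtrl. The level went from 33.7 ± 1.68 to 52.2 ± 7.71 CPM on average (SD, n = 3 each), a log2 difference of 0.63 ± 0.10 (SE, adjusted p 0.000365 in edgeR).

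TIMP2 (chromosome 17, 78852977 to 78925387) gave 3837, 4788 and 4634 counts in shCtrl and 5086, 5608 and 5643 counts in shMORC2. Scaled to CPM, the highest shCtrl library, at 113 CPM, lay just under the lowest shMORC2 library, at 115 CPM. The log2 difference of 0.29 ± 0.10 (SE, adjusted p 0.0415 in edgeR) was the smallest among the called genes of the 9, and it was 0.17 (adjusted p 0.154) without shCtrl replicate 1. Leaving out shMORC2 replicate 2 or 3 also ended the call, with adjusted p of 0.150 and 0.134. CEP295NL shares exonic sequence with TIMP2 on the same strand, so that reads could be split between these genes. It also stood higher, with 1325, 1517 and 1286 counts in shCtrl and 1958, 2345 and 2346 counts in shMORC2. Whether shared reads had a part in the TIMP2 values was not tested. RP11-323N12.5 shares sequence with TIMP2 on the other strand.

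PLAU (chromosome 10, 73909177 to 73917497), which encodes urokinase, gave 687, 922 and 806 counts in shCtrl and 984, 1258 and 1151 counts in shMORC2. In CPM the groups were close, with 21.8 in the highest shCtrl library and 22.2 in the lowest shMORC2 library, but did not overlap. The level rose from 19.0 ± 3.10 to 26.5 ± 4.05 CPM on average (SD, n = 3 each), a log2 difference of 0.48 ± 0.13 (SE, adjusted p 0.0108 in edgeR). Without shMORC2 replicate 2 the adjusted p was 0.0658 and the call was lost. C10orf55 shares exonic sequence with PLAU on the other strand. It also stood higher, with 223, 265 and 219 counts in shCtrl and 301, 364 and 360 counts in shMORC2. How the counting treated strand is not given in the sources used here, and whether shared reads had a part in the PLAU values was not tested.

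PLAUR (chromosome 19, 43646095 to 43670547, minus strand), the urokinase receptor, had the largest rise of the 4 genes called higher. It had 1451, 1813 and 1780 counts in shCtrl and 2511, 3409 and 3338 counts in shMORC2. Every shMORC2 library stood above every shCtrl library. The level went from 39.7 ± 5.76 to 72.3 ± 13.7 CPM (SD, n = 3 each), a 1.82-fold rise, a log2 difference of 0.86 ± 0.13 (SE, adjusted p 0.000254 in edgeR). No other gene of the table shares exonic sequence with PLAUR.

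In both groups the first replicate was the lowest for TIMP2, PLAU and PLAUR, so ratios within a replicate number spread less than the group values. For PLAU the log2 ratio of shMORC2 to shCtrl was 0.50, 0.47 and 0.46 in replicates 1, 2 and 3. It ran from 0.77 to 0.93 for PLAUR, from 0.23 to 0.39 for TIMP2 and from 0.43 to 0.78 for TIMP1. For MMP7 it ran from -1.71 to -1.40 and for MMP14 from -0.99 to -0.55. For MMP15 it was -0.10, 0.20 and -0.02, with no common direction. With the replicate number as a block the same 6 genes were called, beside 49.0% of all genes tested, and the edgeR adjusted p of TIMP2 was 0.000135. The pairing behind this block was taken from the values alone.

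**Figure D2:**
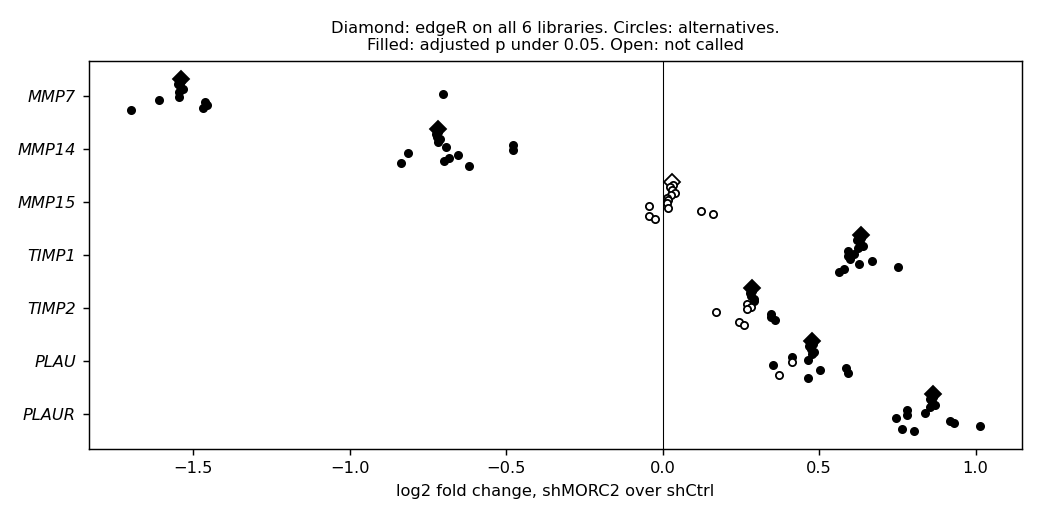
Log2 fold change (x axis) of the 7 genes tested, under edgeR on all 6 libraries (diamond) and under 12 to 14 alternatives (circles), filled where the adjusted p was under 0.05. MMP7, MMP14, TIMP1 and PLAUR are filled throughout, TIMP2 and PLAU are open in some, and MMP15 lies on both sides of 0.

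The AP-1 letters were also found in the PLAUR promoter, 186 bases before the start, in the stretch shown here with the match in capitals to set it beside that of MMP7.
PLAUR: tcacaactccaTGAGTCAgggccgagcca
MMP7: aaacactcaaaTGAGTCAcctatttccac
The 7 letters were the same in both. MMP7 was called lower and PLAUR higher, and whether AP-1 had a part in either change was not tested. CAGGTG, the E-box letters read by Snail-family factors such as Slug, was found on either strand before MMP15 and PLAU and in 17.5% of RefSeq promoters. No match of the 3 motifs was found in the windows of MMP14 and TIMP1. Only matches to these letters were counted, so near variants, such as TGAGTAA in the TIMP1 window, were left out.

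Beside the gene counts, the deposited rMATS splicing table was searched for the 9 genes. It listed 1449 events in 1181 genes, and PLAUR was the 1 gene of the 9 among them. The event set exon 3 (chromosome 19, 43665316 to 43665459, 144 bases) against exon 4 (43656479 to 43656640, 162 bases) of the 7 exons of the canonical transcript. Both are wholly coding, both are multiples of 3 bases, and the canonical transcript holds both. They are shown because they are the sequence that differs between the forms (GRCh38, minus strand, 5′ to 3′).
PLAUR exon 3: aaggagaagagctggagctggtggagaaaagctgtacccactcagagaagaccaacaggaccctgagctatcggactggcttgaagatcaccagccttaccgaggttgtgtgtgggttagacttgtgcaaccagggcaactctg
PLAUR exon 4: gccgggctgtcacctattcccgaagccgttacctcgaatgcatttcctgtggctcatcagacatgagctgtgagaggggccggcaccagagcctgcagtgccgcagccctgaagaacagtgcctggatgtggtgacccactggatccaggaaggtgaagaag
The table calls its groups 1 and 2 and does not say which is shMORC2, so no knockdown direction was assigned. By the deposited form lengths, inclusion stands for the form with exon 3. The authors' inclusion levels were 0.839, 0.864 and 0.815 in the libraries of group 1 and 0.728, 0.721 and 0.737 in those of group 2. They did not overlap, but a difference between the groups is what put an event in this table, so this is a description. The reads behind them were 117, 191 and 161 for inclusion and 24, 32 and 39 for skipping in group 1, and 73, 92 and 92 against 29, 38 and 35 in group 2. Without correction for form length, inclusion was 80.5% to 85.7% in group 1 and 70.8% to 72.4% in group 2.

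**Figure D3:**
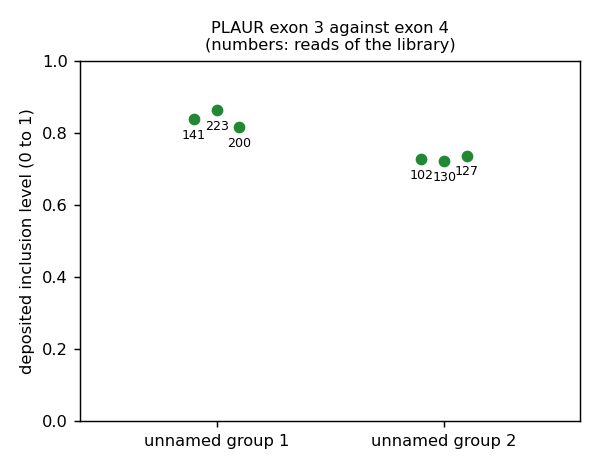
Deposited inclusion level (0 to 1) of PLAUR exon 3 against exon 4 in the 3 libraries of each unnamed group, with the reads of each library written under its point. Group 1 lies between 0.815 and 0.864 on 141 to 223 reads and group 2 between 0.721 and 0.737 on 102 to 130 reads.

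To place the 9 genes in their pathway, 60 further genes in 6 lists were read from the same fit. Of these, 44 were tested, and 8 were called higher and 13 lower. Over all genes tested 19.9% were called higher and 19.6% lower, and these shares stand beside the counts of each list below. The median log2 fold change of the 44 was -0.14, against -0.01 over all genes tested. The 9 genes and the first of these lists make up 23 MMP genes, of which 8 were tested and 6 (MMP3, MMP8, MMP10, MMP12, MMP26 and MMP27) had 0 counts in all 6 libraries. MMP2, the substrate of MMP14, had at most 4 counts in any library. Of the 5 other MMPs tested, MMP24, a membrane type known from neural tissue, was called higher (log2 fold change 0.62, SE 0.17, edgeR adjusted p 0.0120) with overlapping groups, and lost the call without shCtrl replicate 3 or shMORC2 replicate 3 (adjusted p 0.0508 and 0.0667). MMP17, a membrane type with a lipid anchor, was called lower (log2 fold change -0.49, edgeR adjusted p 0.00644).

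Of the 4 other MMP inhibitors, all tested, 1 was called. TIMP3, which binds the matrix, fell from 26.3 ± 3.28 to 16.7 ± 3.62 CPM on average (SD, n = 3 each), a log2 difference of -0.66 ± 0.14 (SE, adjusted p 0.00266 in edgeR). It had 990, 1167 and 1183 counts in shCtrl and 560, 740 and 835 counts in shMORC2, without overlap. The direction was opposite to that of TIMP1 and TIMP2. TIMP4, RECK and A2M were not called. The list's median log2 fold change, -0.47, lay between those of TIMP4 (-0.52, SE 0.41) and A2M (-0.43, SE 0.20).

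Among plasminogen, its other activator and its binding proteins, 9 of 10 were tested, 3 were called higher and 1 lower, with a median log2 fold change of 0.18. S100A10, which binds plasminogen at the cell surface in a complex with annexin A2, rose from 153 ± 11.7 to 288 ± 41.2 CPM on average (SD, n = 3 each), a log2 difference of 0.92 ± 0.10 (SE, adjusted p 1.97e-05 in edgeR). It had 6144, 6574 and 6715 counts in shCtrl and 10759, 13411 and 12806 counts in shMORC2. PLAT, the tissue-type plasminogen activator, had 193, 208 and 190 counts in shCtrl and 313, 357 and 346 counts in shMORC2 (log2 fold change 0.77, SE 0.13, edgeR adjusted p 0.000385). PLGRKT, a plasminogen receptor, also rose (log2 fold change 0.58, edgeR adjusted p 0.000862). The gene called lower was VTN, which encodes vitronectin, a ligand of PLAUR. It had 16, 30 and 14 counts in shCtrl and 6, 2 and 2 counts in shMORC2. VTN passed the filter on low counts through shCtrl alone. Its call was lost in limma on log2(RPKM + 1) with no filter (adjusted p 0.0534). ANXA2, the partner of S100A10, was not called, and plasminogen itself (PLG) had at most 2 counts.

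Of 5 serpins and other brakes on plasminogen activation, 3 were tested and 1 was called. The list's median log2 fold change, -0.56, was that of SERPINA5 (SE 0.48), which was not called. SERPINE2, a serpin that inhibits PLAU, had 2788, 3386 and 3626 counts in shCtrl and 1602, 2075 and 1977 counts in shMORC2, without overlap. It fell from 77.3 ± 12.5 to 44.1 ± 7.15 CPM on average (SD, n = 3 each), a log2 difference of -0.81 ± 0.13 (SE, adjusted p 0.000306 in edgeR).

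Of 7 activators and inducers of MMPs, all tested, 5 were called lower and 1 higher, with a median log2 fold change of -0.32. The lower ones were the proprotein convertases FURIN, PCSK5 and PCSK7, which cut the propeptide of membrane-type MMPs or of other precursors, and the surface serine proteases ST14 and HPN. Their log2 fold changes ran from -0.61 (ST14) to -0.26 (PCSK7). ST14 had 5751, 7550 and 8863 counts in shCtrl and 4709, 4830 and 5160 counts in shMORC2, without overlap (log2 fold change -0.61, SE 0.14, edgeR adjusted p 0.00309). The call of PCSK5 was lost without shCtrl replicate 1 or 3 or shMORC2 replicate 2 (adjusted p from 0.0609 to 0.0960), and that of HPN without shCtrl replicate 2 or 3 or shMORC2 replicate 1 or 2 (adjusted p from 0.0653 to 0.167). BSG, also called EMMPRIN after its ability to induce MMPs, rose (log2 fold change 0.55, SE 0.08, edgeR adjusted p 0.000184).

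Of 16 AP-1, ETS and TCF regulators, known as regulators of MMP and PLAU promoters, all were tested, 3 were called higher and 4 lower, with a median log2 fold change of -0.11. The lower ones were the AP-1 genes FOSB, JUNB, FOS and FOSL2. JUNB had 1105, 1847 and 1613 counts in shCtrl and 682, 649 and 678 counts in shMORC2 (log2 fold change -1.20, SE 0.15, edgeR adjusted p 5.85e-05). FOS had 483, 1408 and 800 counts in shCtrl, a wide spread, and 413, 414 and 414 counts in shMORC2 (log2 fold change -1.14, SE 0.27, edgeR adjusted p 0.00492). Without shCtrl replicate 2 its log2 fold change was -0.66 (adjusted p 0.0217). FOSB changed by -1.24 ± 0.24 on the log2 scale (SE, adjusted p 0.00136 in edgeR), while FOSL1, JUN and JUND were not called. The higher ones were the TCF genes LEF1, TCF7 and TCF7L2, with LEF1 at 40, 26 and 22 counts in shCtrl and 597, 521 and 564 counts in shMORC2 (log2 fold change 4.24, SE 0.17, edgeR adjusted p 6.44e-09). The call of FOSL2 was lost without shCtrl replicate 2 or shMORC2 replicate 1 or 3 (adjusted p from 0.0548 to 0.116), and that of TCF7L2 without any of shCtrl replicates 1 and 2 and shMORC2 replicates 2 and 3 (adjusted p from 0.0767 to 0.130). The 5 ETS genes and CTNNB1 were not called.

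**Figure D4:**
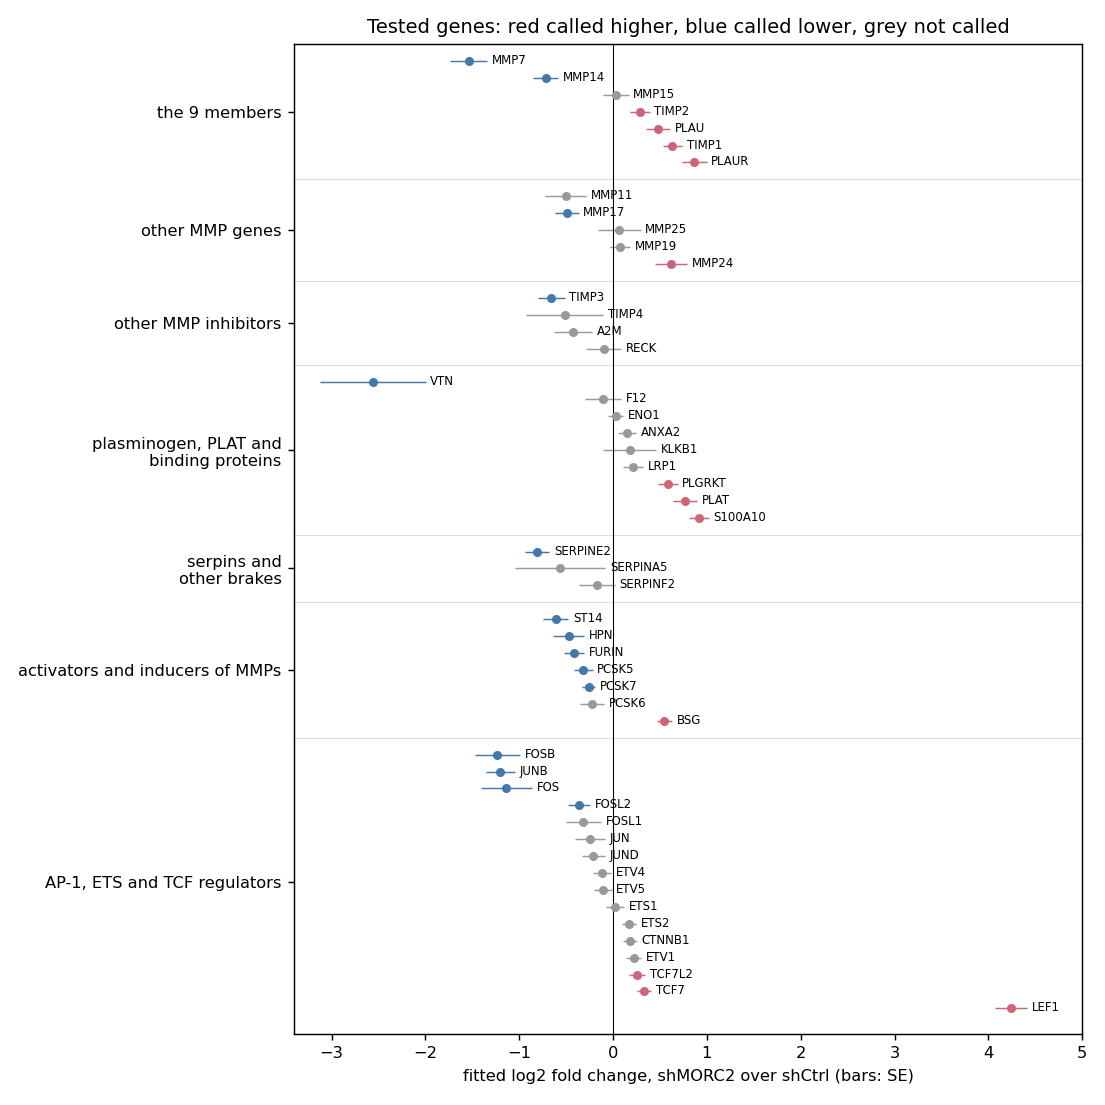
Fitted log2 fold change of shMORC2 over shCtrl (x axis, bars are SEs) for the tested genes among the 9 genes and the 6 lists of pathway genes. Red points were called higher, blue points lower, and grey points were not called at an adjusted p under 0.05. TIMP1, TIMP2, PLAU and PLAUR lie to the right with PLAT, PLGRKT, S100A10 and BSG, and MMP7 and MMP14 to the left with TIMP3 and SERPINE2.

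MMP7 had the smallest edgeR p of the 7 genes tested with all 6 libraries and no block, while PLAUR had a smaller adjusted p in DESeq2, without the filter on low counts and with the replicate block. The genes whose log2 CPM followed MMP7 most closely over the 6 libraries, among those averaging 100 counts or more, were RP11-123K3.9, DEPTOR and CCND1 (Pearson r 0.999, 0.998 and 0.997, n = 6). This is a description, since the points share the 2 groups, and 666 of 14335 genes compared (4.65%) had an r over 0.95.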

How the data were processed

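Polyadenylated RNA from 3 shCtrl and 3 shMORC2 libraries of SW480 cells was sequenced from stranded libraries. The submitters' processing notes name Trimmomatic 0.36, STAR 2.5.3a, featureCounts of Subread 1.5.1, edgeR 3.12.1 and GRCh38. The strand setting, the annotation release and whether molecular identifiers were collapsed are not given in the sources used here. The deposited table holds raw read counts per gene, and the authors computed the deposited RPKM values from the same counts, which a recomputation matched within 0.1% for all 219678 values. The authors' rMATS table also holds their own p-values and differences, which were not used.

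The test on counts was the quasi-likelihood fit of edgeR 4.0.16 (R 4.3.3) with group as the term (TMM scaling, filterByExpr, Benjamini-Hochberg adjustment over all 21005 genes tested). SE is the size of the log2 fold change divided by the square root of F. Alternatives were DESeq2 1.42.0, limma 3.58.1 on log2(RPKM + 1) or log2(RPKM + 0.1), library size without TMM, other filters, the replicate number as a block, and each library left out. The fit was also run on simulated counts with 200 genes changed and no effect shared by a replicate number. In these data 8301 genes were called, so the simulated setting differs and no conclusion is drawn from it. Each of the 9 genes overlapped its GENCODE v44 entry on the same strand. Libraries with the same number deviated together from their group means, with correlations of 0.215, 0.111 and 0.102, and the numbers were taken to pair them on the evidence of the values alone. Beside the 9 genes and MORC2, the text names the 10 called pathway genes that changed most among those averaging 100 counts or more. Further genes of the pathway and marker lists were chosen for naming after their values were seen. The members, lists, motifs and tests were chosen with earlier results of these data known. Some genes of the pathway and marker lists are not reported here, and the counts leave them out. The gene tables had 0 columns outside the series. Intervals cover counting error only.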

Additional observations from a re-analysis of the deposited data

How the results depend on the processing

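MMP7, MMP14, TIMP1, PLAUR and MORC2 kept their direction and their call in every alternative that gave a value, 12 for MMP7 and 14 for each of the others. Their log2 fold changes ran from -1.70 to -0.70 for MMP7 and from -0.84 to -0.48 for MMP14. They ran from 0.56 to 0.75 for TIMP1, from 0.74 to 1.01 for PLAUR and from -0.74 to -0.55 for MORC2. The values of -0.70 and -0.48 came from limma on log2(RPKM + 1), in which the added 1 shrinks the ratio of low RPKM values. With a library left out, edgeR gave -1.70 to -1.45 for MMP7. TIMP2 was called in 8 of 14 alternatives (adjusted p from 0.000135 to 0.154) and PLAU in 12 of 14 (adjusted p from 4.85e-06 to 0.0893). MMP15 was called in none of its 14 alternatives, and its log2 fold change ran from -0.045 to 0.16 with a library left out, reversing to -0.045, -0.044 and -0.025 without shCtrl replicate 1, shMORC2 replicate 2 and shMORC2 replicate 3. The number of the 9 genes called ran from 4 to 7 with a library left out, and MMP9 was the one added where there were 7. In those fits MMP9 passed the filter through shMORC2 replicates 2 and 3 alone. With limma on log2(RPKM + 1) and no filter on low values, 5454 genes and 10 pathway genes were called, in place of 8301 and 21, and the cause was not tested. The replicate block, under which 10287 genes and 30 pathway genes were called, changed no call of the 9 genes or MORC2. Of the 21 called pathway genes, 10 kept their call in every alternative, and 31 of 289 values were weaker, with none reversed. Depth limits MMP1, which had at most 6 counts in any library. MMP9 had 32 and 52 counts in shMORC2 replicates 2 and 3 but 3 in replicate 1, too few libraries to pass the filter on low counts.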
